A study of Mus musculus with 73 samples.

Results

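Mammary adenocarcinomas of the KB2P mouse model were ordered by their level of H2-Eb1, which encodes the beta chain of the MHC class II molecule I-E. The 8 tumours with the highest and the 8 with the lowest level were compared, which is 16 of the 23 KB2P tumours and of the 73 mammary tumours of the series. The tumours were chosen by their measured H2-Eb1 in CPM, the read count of the gene scaled to the total count of its library. The 2 sets are called H2-Eb1-high and H2-Eb1-low below, and the middle 7 tumours stayed in the model fits. The series, 1 RNA library per tumour, set tumours with a Brca1 variant in the domain that binds PALB2 beside tumours of the KP, KB1P and KB2P models. All 23 tumours carry the genotype label KB2P, are labelled adenocarcinoma and are given as 100% epithelial, so the 2 sets share genotype and histology. Titles KB1P and KB1PM name 11 and 10 tumours of the KB1P genotype, which are used here as tumours that took no part in the ordering. In the established models of these names a Krt14 promoter drives Cre recombinase, which deletes conditional alleles of Trp53 and of Brca2 (KB2P) or Brca1 (KB1P) in epithelium, so host stromal and immune cells keep the genes. No age is used here, and the labels do not say that each tumour came from a separate mouse, so the p-values speak of how these libraries vary and may reflect technical spread.

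MHC class II molecules show peptides from engulfed protein to CD4 T cells. Dendritic cells, macrophages and B cells carry them at rest, and interferon gamma can switch them on in many other cells, carcinoma cells included. Their genes share a promoter module, read by a fixed set of DNA-binding factors that act only when the coactivator Ciita is present. The invariant chain Cd74 blocks the peptide groove until cathepsins degrade it, and H2-DM and H2-O then control which peptide is loaded.

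Letters of this module stand just upstream of the start in several class II genes, and 4 genes that hold them are shown for that reason. Each line gives the last 100 bases before the annotated start, 5′ to 3′ on the strand of the gene, from RefSeq on GRCm38.p6. Capitals mark the letters TGATTGG, the class II Y box, and any match to an X box pattern, which is GNAAC, then any 3 bases, then TGANG.
H2-Eb1: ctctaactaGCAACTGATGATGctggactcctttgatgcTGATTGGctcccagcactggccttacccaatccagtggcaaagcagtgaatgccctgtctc
H2-Ob: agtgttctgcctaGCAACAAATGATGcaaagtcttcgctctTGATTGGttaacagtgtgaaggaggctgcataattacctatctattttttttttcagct
H2-DMb1: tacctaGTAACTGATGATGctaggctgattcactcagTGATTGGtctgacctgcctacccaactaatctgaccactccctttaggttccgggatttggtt
H2-Aa: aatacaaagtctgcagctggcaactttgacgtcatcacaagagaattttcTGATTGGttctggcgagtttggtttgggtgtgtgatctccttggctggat
These stretches lie at chr17:34305767-34305866 (plus strand), chr17:34238805-34238904 (plus), chr17:34153091-34153190 (plus) and chr17:34287824-34287923 (minus). TGATTGG begins 61 bases before the start of H2-Eb1, 59 before H2-Ob, 63 before H2-DMb1 and 50 before H2-Aa. The X box pattern begins 91, 87 and 94 bases before the start in the first 3 and was not found in the stretch of H2-Aa. Over 32851 promoter stretches of this length, searched on both strands, 4.58% held TGATTGG, 0.332% held the X box pattern and 6 promoters held both, among them the first 3 shown. A match describes letters and does not show that a factor binds. H2-DMb2 and H2-Oa held TGATTGG alone (92 and 45 bases before the start), and neither of the 2 H2-DMa promoters held either pattern. H2-Ab1 and Ciita were not among the promoters.

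H2-Eb1 lies at chr17:34305867-34316674 on the plus strand of GRCm38. In the high set it ran from 90.4 to 664 CPM with a median of 127, and in the low set from 12.4 to 39.5 CPM with a median of 21.7. These values chose the sets and are a description. KB2P 16 (664 CPM) and KB2P 13 (367 CPM) stood above the other 6 high tumours, which lay between 90.4 and 133 CPM. Just inside and just outside the upper boundary were KB2P 3 at 90.4 and KB2P 27 at 88.9 CPM. At the lower boundary KB2P 34 had 39.5 and its neighbour among the middle tumours, KB2P 51, had 51.8 CPM. The first field of the library description, read here as the sequencing run, was unevenly spread. Run 2459 held 7 high, 1 middle and 1 low tumour, run 2749 held 1 high, 5 middle and 6 low tumours, and run 2802 held 1 middle and 1 low tumour. Median H2-Eb1 was 123 CPM in run 2459, 45.7 CPM in run 2749 and 49.7 CPM in run 2802. The high tumour of run 2749 was KB2P 12, and the low and middle tumours of run 2459 were KB2P 8 and KB2P 10. As the middle tumours stayed in the fit, the set difference adjusted for run rests largely on these single tumours.

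**Figure D1:**
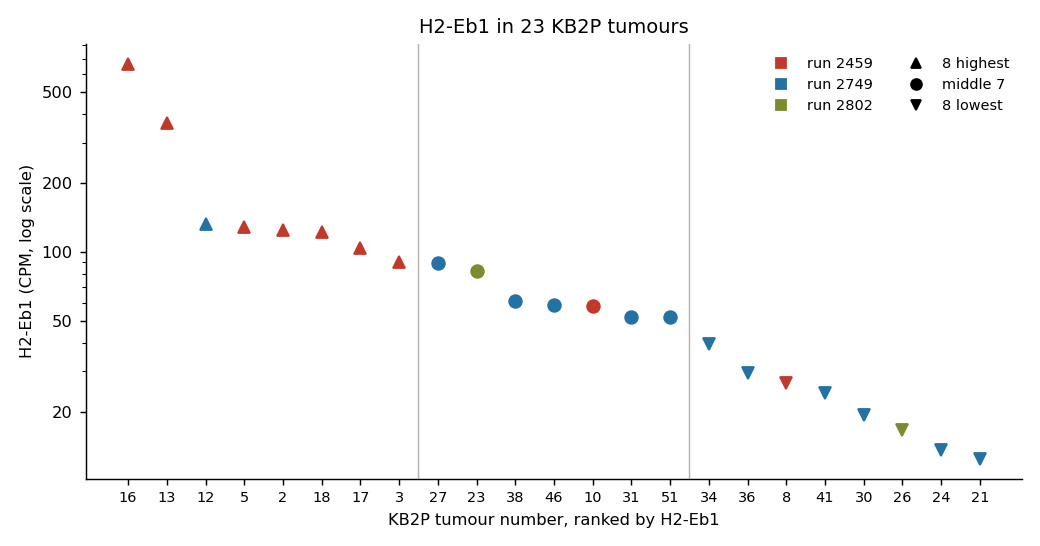
H2-Eb1 in CPM (log axis) for the 23 KB2P tumours in rank order, with colour for the run and shape for the set. Of the 8 highest tumours 7 are from run 2459, and of the 8 lowest 6 are from run 2749.

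Total counts per library were 9406409 to 18205561 in the high set and 9943496 to 16865485 in the low set. KB2P 30, a low tumour, stood apart. It is labelled 100% epithelial, yet had 5.13 CPM of the epithelial adhesion gene Epcam, 2.84 CPM of the cadherin gene Cdh1 and 0.275 CPM of the keratin gene Krt8, while the other 22 KB2P tumours had 206 CPM of Epcam or more. Kit (805 CPM) and Sox10 (507 CPM), which the other KB2P tumours also express, were present in it. Brca2 counts over the whole gene were 21.5 to 58.8 CPM (median 41.2) in the high set and 31.8 to 116 CPM (median 61.4) in the low set. The sets overlapped and Brca2 did not pass (log2 difference -0.34, SE 0.33, adjusted p = 0.931). Brca1 (log2 difference -0.03, SE 0.36, adjusted p = 0.999) and Trp53 (0.42, SE 0.33, adjusted p = 0.886) did not pass either, and counts summed over a gene do not show which exons are lost.

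Other H2 genes were ordered with H2-Eb1 and are given without a test. H2-Aa, the class II alpha chain of I-A, was 249 to 1627 CPM (median 333) in the high and 35.6 to 113 CPM (median 62.9) in the low set. H2-Ab1, its beta chain, was 162 to 1635 CPM (median 265) against 23.9 to 76.9 CPM (median 48.4). Neither gene overlapped between the sets, and H2-DMb2, a chain of the peptide editor, did not either (4.39 to 50.2 against 0.882 to 2.31 CPM). H2-DMb1, another chain of that editor, was 14.6 to 78.6 against 2.06 to 21.3 CPM and overlapped. H2-Ob, a chain of the inhibitor of that editor, was 0.842 to 28.2 CPM (median 13.2) in the high and 0 to 1.00 CPM in the low set, with 7 of 8 high tumours above every low tumour. The class I genes overlapped more: H2-K1 was 288 to 2733 CPM (median 736) in the high and 52.3 to 547 CPM (median 154) in the low set. For H2-K1, as for H2-D1 (271 to 1893 against 91.5 to 573 CPM), 4 of 8 high tumours exceeded every low tumour. H2 genes resemble each other in sequence, so reads of class I copies may be divided uncertainly.

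With run as a covariate, the comparison of the sets called few genes beyond the H2 family. Cd74, Dnase1l3 and Rbpj-ps3 were higher and Tal1 was lower in H2-Eb1-high tumours. Of 17115 genes tested with edgeR, 3 (0.0175%) passed as higher and 1 (0.00584%) as lower, 0.0234% in all, at an adjusted p under 0.05, while 641 higher and 574 lower genes had an unadjusted p under 0.05. Without the run term the sets differed at 307 higher (2.03%) and 159 lower genes (1.05%) of 15102 tested, 3.09% in all. DESeq2 with the run term called 120 higher and 39 lower genes. In CPM, with no adjustment for run, all 8 high tumours lay above all 8 low tumours for 39 genes (0.228%) and below them for 12 (0.0701%). As the same libraries set the sets, nothing is read from these shares.

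Because 2 sets of 8 hold little information on run, each gene was also related to log2(H2-Eb1 CPM + 1) over all 23 KB2P tumours with run as a covariate. The slope is the log2 change of a gene per log2 unit of H2-Eb1. It had been planned as an alternative to the 2 sets and was made a result of its own after the set comparison had been seen. At an unadjusted p under 0.05, 6.34% of genes were higher and 5.26% lower along H2-Eb1, against which the unadjusted counts of the lists below are to be read. By this slope 212 genes rose with H2-Eb1 (1.24% of 17115) and 17 fell (0.0993%), 1.34% in all. The order again came from these libraries, so these counts describe it and support nothing by themselves. Without KB2P 16 the slope called 49 genes higher and 7 lower, without KB2P 12 it called 93 and 6, and without KB2P 16 and KB2P 13 together 9 and 1. Within run 2459 alone 25 genes rose (0.152% of those tested), and within run 2749 alone 1 gene rose (0.00647%), which was Cd74. The 2 sets were not compared within a run: that was planned only where both sets had at least 2 tumours in it, and run 2459 held 1 low and run 2749 held 1 high tumour.

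The invariant chain and the class II coactivator both rose with H2-Eb1. Cd74 was 429 to 3195 CPM (median 640) in H2-Eb1-high and 66.1 to 207 CPM (median 119) in H2-Eb1-low tumours. Every high tumour exceeded every low one, with KB2P 16 and KB2P 13 at 3195 and 1849 CPM. The log2 difference between the sets was 2.92 (SE 0.53, adjusted p = 0.0491) with run as covariate. Its slope of 0.95 (SE 0.05, adjusted p = 3.88e-12) passed in all 23 fits that left out 1 tumour, whereas the set difference passed in 8 of 23.

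Ciita (chr16:10480059-10528418, plus strand) was 5.55 to 72.2 CPM (median 19.7) in the high and 1.95 to 7.32 CPM (median 3.41) in the low set. In 7 of 8 high tumours it exceeded every low tumour, the exception being KB2P 3 at 5.55 CPM. The set difference of 2.78 (SE 0.72) had an adjusted p of 0.176 and did not pass, while the slope of 0.92 (SE 0.12, adjusted p = 1.69e-04) did. Of the 14 tested genes of a list of class II regulators and processing enzymes, 4 rose by the slope, namely Cd74, Ciita, the costimulatory ligand Cd86 and the protease Ctss, and none fell. Cd86 was 4.99 to 23.3 CPM in the high and 1.24 to 3.94 CPM in the low set, with no overlap. Ctss, which trims the invariant chain, was 82.7 to 317 against 18.7 to 86.0 CPM, with 7 of 8 high tumours above every low one. The median slope of the list was 0.26, beside -0.02 over all genes tested. Lgmn and Ctsl, lysosomal proteases of the same list, did not pass (slopes 0.11 and 0.02). Without KB2P 16 the list had 2 calls.

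Dnase1l3, a secreted nuclease made by macrophages and dendritic cells, lies at chr14:7964533-7994573 on the minus strand. It was 8.90 to 107 CPM (median 16.6) in the high and 0.784 to 7.91 CPM in the low set, without overlap. Its set difference was 4.00 (SE 0.72, adjusted p = 0.0491) and its slope 1.30 (SE 0.17, adjusted p = 1.69e-04). Leaving out single tumours, the set difference passed in 7 of 23 fits and the slope in 23 of 23. Rbpj-ps3, a processed pseudogene of Rbpj whose reads may be shared with its parent, was 1.59 to 6.30 CPM in the high and 0.154 to 0.905 CPM in the low set (log2 difference 3.61, SE 0.53, adjusted p = 0.0148). Tal1, a transcription factor of blood and endothelial cells, was 0.615 to 2.71 CPM in the high and 0.846 to 157 CPM in the low set. A value of 157 CPM in KB2P 8 set its difference of -4.12 (SE 0.76, adjusted p = 0.0491). Without KB2P 8 the log2 difference was -0.71 with an adjusted p of 0.955, and the other low tumours lay between 0.846 and 2.50 CPM.

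**Figure D2:**
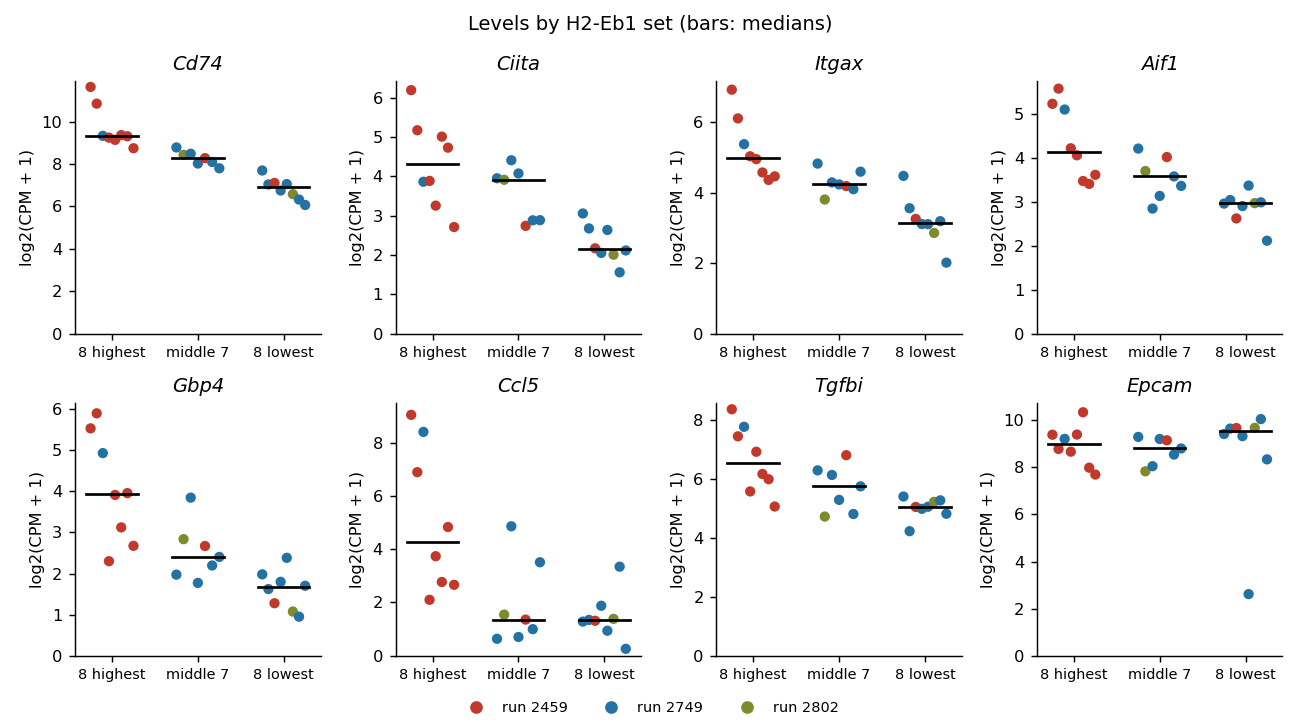
log2(CPM + 1) of 8 genes in the 8 highest, middle 7 and 8 lowest tumours by H2-Eb1, 1 point per tumour coloured by run, with bars at the medians. Cd74 does not overlap between the highest and lowest sets, Ciita and Itgax overlap little, and Epcam overlaps throughout apart from KB2P 30 near the bottom.

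Macrophage and dendritic cell genes were among those that rose with H2-Eb1. In the macrophage list, which had more calls than any other list, 7 of 23 tested genes rose by the slope and none fell, with a median slope of 0.42. Aif1, a macrophage actin-bundling protein, was 9.62 to 46.8 CPM (median 16.7) in the high and 3.33 to 9.34 CPM (median 6.81) in the low set. The ranges did not overlap, the slope was 0.62 (SE 0.10, adjusted p = 0.00152) and the set difference of 1.92 (SE 0.45) had an adjusted p of 0.124. Spi1, the myeloid transcription factor, was 10.7 to 75.6 against 4.10 to 10.9 CPM, with 7 of 8 high tumours above every low one.

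Ccr2, the receptor that brings monocytes into tissue, was 7.86 to 64.1 CPM in the high and 1.44 to 7.60 CPM in the low set without overlap (slope 0.72, SE 0.13, adjusted p = 0.00411). C1qa, a complement subunit made by resident macrophages, was 74.2 to 367 against 25.6 to 89.8 CPM (slope 0.51, SE 0.11, adjusted p = 0.0129). Csf1r, the receptor macrophages need to survive, showed how unequal the high tumours were. It was 299 CPM in KB2P 16, 252 in KB2P 12 and 180 in KB2P 13, but 55.2 to 69.0 CPM in the other 5, inside the low range of 19.9 to 86.6 CPM. Apoe and Lyz2, abundant genes of the list that did not pass, had slopes of 0.19 (SE 0.14) and 0.37 (SE 0.19). Without KB2P 16 the list had 1 call, without KB2P 12 it had 3, and without KB2P 30 it had 8.

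Itgax, the integrin CD11c of dendritic cells and some macrophages, was 19.5 to 120 CPM (median 30.8) in the high and 3.04 to 21.2 CPM (median 7.88) in the low set. The slope of 0.82 (SE 0.07, adjusted p = 3.22e-07) passed in 23 of 23 fits without a tumour and was 0.83 within run 2459 (adjusted p = 0.00588) and 0.90 within run 2749, where it did not pass (adjusted p = 0.0556). In the dendritic cell list 2 of 17 tested genes rose, Itgax and the plasmacytoid marker Siglech (0.772 to 10.3 against 0 to 1.10 CPM), and the median slope was 0.31. Summed over that list the sets overlapped, at 250.5 to 1214 CPM in the high and 122 to 544 CPM in the low set. Only 2 high tumours exceeded every low tumour, and KB2P 8 had the highest low sum. Irf8, needed for cross-presenting dendritic cells, was 16.0 to 77.4 against 8.72 to 30.0 CPM and did not pass (adjusted p = 0.283). In bulk RNA, more cells of a type and more RNA per cell cannot be told apart.

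Further myeloid genes outside the lists rose by the slope, and those named here were chosen after their values were seen. Slamf8, a receptor of activated macrophages, was 1.04 to 8.51 CPM in the high and 0.503 to 1.01 CPM in the low set (slope 0.86, SE 0.11, adjusted p = 1.00e-04). Cybb, the catalytic subunit of the phagocyte oxidase, was 29.4 to 115 against 7.35 to 30.1 CPM. Il1b, an inflammatory cytokine, was 3.01 to 104 against 1.17 to 3.43 CPM (slope 1.08, SE 0.15, adjusted p = 1.86e-04). KB2P 16 had the highest Slamf8 and Il1b and KB2P 13 the highest Cybb. Neutrophil genes had 0 calls of 8 tested in edgeR, with a median slope of 0.11. At an unadjusted p under 0.05, 2 were higher, and DESeq2 called 1. Their list summed to 7.91 to 92.4 CPM in the high and 5.58 to 270 CPM in the low set.

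Of 19 tested genes of an interferon gamma response list 2 rose by the slope, Gbp4 and Gbp8. The list had positive slopes for 19 of 19 members, with a median of 0.55, 13 had an unadjusted p under 0.05, and DESeq2 called 10. Gbp4, a guanylate-binding GTPase, was 3.92 to 58.7 CPM (median 14.3) in the high and 0.931 to 4.21 CPM (median 2.17) in the low set. In 7 of 8 high tumours it exceeded every low tumour, with KB2P 13, KB2P 16 and KB2P 12 highest. Its slope was 1.08 (SE 0.15, adjusted p = 2.88e-04), and its set difference of 3.64 (SE 0.70) had an adjusted p of 0.0643. Gbp genes form a family of close copies, so their counts may be divided uncertainly. Jak2 and Ifngr2, abundant members that carry the signal, did not pass (slopes 0.35 and 0.37). Cd274, which encodes PD-L1, was 4.34 to 53.5 against 2.85 to 13.5 CPM and did not pass (slope 0.52, SE 0.20, adjusted p = 0.264).

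Chemokine genes were high in a few tumours, not all of them H2-Eb1-high. The list summed to 189 to 1512 CPM in the high and 136 to 1476 CPM in the low set. Only KB2P 16 (1512 CPM) exceeded every low tumour, and KB2P 30 had the highest low sum. Ccl5, a ligand that draws T cells and monocytes, was 3.28 to 526 CPM (median 19.9) in the high and 0.196 to 9.14 CPM (median 1.51) in the low set. KB2P 16 (526 CPM), KB2P 12 (337 CPM) and KB2P 13 (118 CPM) stood above the other 20 KB2P tumours. Its slope was 1.77 (SE 0.31, adjusted p = 0.00291) and the set difference of 6.69 (SE 1.41) had an adjusted p of 0.106. Of 30 tested chemokine genes 4 rose, the others being Cxcl16 (29.9 to 313 against 16.3 to 55.2 CPM), the monocyte attractant Ccl2 (3.04 to 80.1 against 1.54 to 6.74 CPM) and Ccl20 (0.257 to 198 against 0 to 4.32 CPM). KB2P 16 and KB2P 12 had the most Ccl5 and Ccl20. Without KB2P 16, and likewise without KB2P 12, the list had 1 call.

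Type I interferon genes were unevenly spread among the high tumours. Summed over the 26 genes of the list the level was 219 to 4321 CPM (median 727) in the high and 157 to 1115 CPM (median 202) in the low set. KB2P 13 (4321 CPM) and KB2P 2 (3321 CPM) were highest, followed by KB2P 51 (3006 CPM) from the middle tumours, while KB2P 16 had 529 and KB2P 12 had 293 CPM. Ifit1, an interferon-induced RNA sensor, followed the same tumours with 226 CPM in KB2P 13, 128 in KB2P 2 and 144 in KB2P 51 but 3.20 in KB2P 16. None of the 26 genes passed the slope in edgeR, 11 had an unadjusted p under 0.05, and DESeq2 called 11. All 26 slopes were positive, with a median of 0.85. None of 14 tested genes of class I processing passed in edgeR, with 9 at an unadjusted p under 0.05 and 5 called by DESeq2. B2m, the class I light chain, was 157 to 2060 against 124 to 814 CPM (slope 0.58, SE 0.16, adjusted p = 0.079).

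Antigen receptor genes of lymphocytes were high in 3 of the H2-Eb1-high tumours. Cd3e, a subunit of the T cell receptor, was 18.0 CPM in KB2P 13, 12.9 in KB2P 17 and 10.6 in KB2P 18, and 0.308 to 1.43 CPM in the other 5 high tumours. Cd79a, a subunit of the B cell receptor, marked the same 3 tumours at 13.5, 19.04 and 23.9 CPM, with 0.193 to 0.583 CPM in the other 5. The low tumours had 0 to 0.733 CPM of Cd3e and 0.268 to 0.593 CPM of Cd79a. Among the middle tumours KB2P 38 had 26.2 CPM of Cd3e and 17.8 CPM of Cd79a.

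KB2P 38 also had the lowest Csf1r of the middle tumours (34.6 CPM), and KB2P 16, first by H2-Eb1, had 0.732 CPM of Cd3e and 0.366 of Cd79a. The summed T cell list did not follow Cd3e: it was 385 CPM in KB2P 12 and 339 CPM in KB2P 5, above every low tumour (85.8 to 297 CPM), and 236 CPM in KB2P 18, within the low range. Tcf7, a transcription factor on that list, made up 293, 228 and 72.7 CPM of these sums. The B cell list summed to 170 CPM in KB2P 16, where Cr2, the complement receptor of B cells and follicular dendritic cells, made up 159 CPM. Of 20 T cell and 12 B cell genes tested none passed the slope in edgeR, with 12 and 4 at an unadjusted p under 0.05 and 9 and 3 called by DESeq2. Cytotoxic and natural killer genes had 1 call of 11, Ccl5 itself. Of 14 plasma cell genes none passed, with 5 at an unadjusted p under 0.05 and 4 called by DESeq2, though Igkc, the kappa light chain, was 6.62 to 211 against 1.41 to 15.8 CPM. Madcam1, an adhesion molecule of venules that lymphocytes enter by, was 42.8 CPM in KB2P 16 and 27.96 in KB2P 13 and at most 1.73 CPM in the other 6 high tumours (slope 1.72, SE 0.30, adjusted p = 0.00311).

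**Figure D3:**
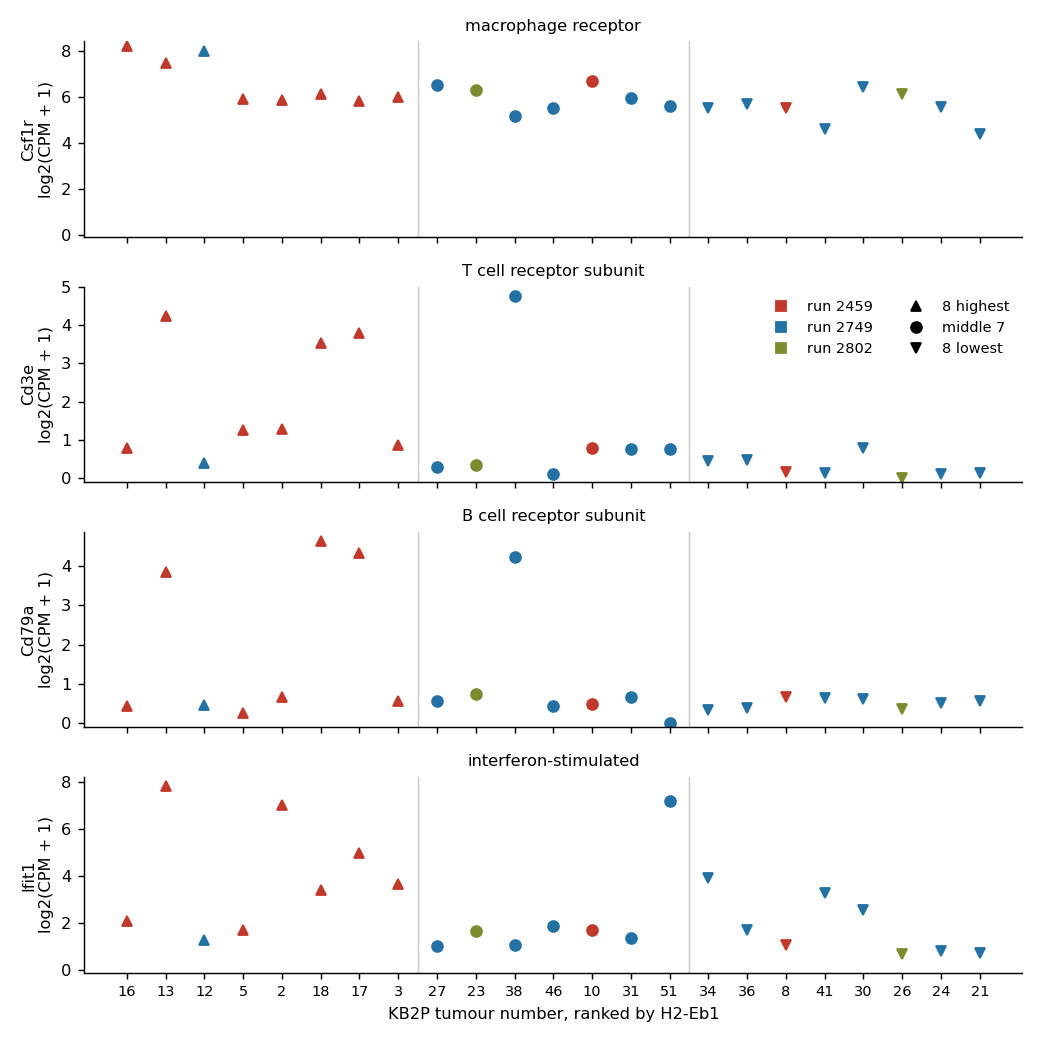
log2(CPM + 1) of Csf1r, Cd3e, Cd79a and Ifit1 in each of the 23 KB2P tumours in rank order of H2-Eb1, with colour for the run and shape for the set. Csf1r is highest in KB2P 16, KB2P 12 and KB2P 13, whereas Cd3e and Cd79a stand out in KB2P 13, KB2P 18, KB2P 17 and KB2P 38.

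Few genes of stromal cells other than immune cells passed the slope. Of 8 genes of lymphatic vessels and high venules 1 rose, Madcam1, and the median slope of that list was 0.47. Of 22 fibroblast and collagen genes none passed the slope in edgeR or DESeq2, 1 had an unadjusted p under 0.05, and the median slope was 0.03. Summed over that list the level was 3773 to 7633 CPM in the high and 3534 to 6519 CPM in the low set. Col1a1, the main fibrillar collagen chain, was 366 to 1350 CPM (median 751) in the high and 24.6 to 839 CPM (median 368) in the low set, and Sparc was 670 to 1490 against 633 to 1140 CPM. Both overlapped, with slopes of 0.17 (SE 0.20) and 0.02 (SE 0.11). None of 12 endothelial genes passed in edgeR or DESeq2 and none had an unadjusted p under 0.05. Pecam1, an endothelial adhesion gene, was 24.3 to 78.8 against 28.6 to 66.1 CPM (slope 0.06, SE 0.11). None of 10 pericyte and smooth muscle genes and none of 11 adipocyte genes passed in either tool, with 1 and 0 at an unadjusted p under 0.05.

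Genes of the carcinoma cells overlapped widely between the sets. Epcam was 206 to 1297 CPM (median 516) in the high and 5.13 to 1060 CPM (median 742) in the low set, where KB2P 30 is the lowest value. Krt14, a basal keratin, was 31.8 to 765 against 0.458 to 505 CPM (slope -0.02, SE 0.37). None of 20 general epithelial genes passed in edgeR, with 3 at an unadjusted p under 0.05 and 1 called by DESeq2, and none of 14 luminal genes passed, with 3 at an unadjusted p under 0.05 and none called by DESeq2.

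Tgfbi, a matrix protein induced by TGF-beta that both tumour cells and macrophages make, was the member of 16 mesenchymal genes that rose. It was 32.2 to 325 CPM (median 94.8) in the high and 17.6 to 41.1 CPM (median 32.0) in the low set (slope 0.61, SE 0.12, adjusted p = 0.00765), with KB2P 16 and KB2P 12 highest. Vim and Fn1 of that list did not pass (slopes 0.02 and -0.15). Tgfbi did not pass when KB2P 16 was left out, and the list then had 0 calls. None of 20 proliferation genes and none of 18 homologous recombination genes passed in edgeR or DESeq2, with 0 and 1 at an unadjusted p under 0.05. Mki67, the proliferation marker, was 326 to 1053 CPM (median 541) in the high and 390 to 1202 CPM (median 818) in the low set (slope -0.09, SE 0.10). None of 14 p53 target genes passed in either tool or had an unadjusted p under 0.05.

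Among the 17 genes that fell along H2-Eb1 was Fzd7, a Wnt receptor of mammary progenitor cells, named after its values were seen. It was 349 to 1240 CPM in the high and 324 to 2890 CPM in the low set, and the ranges overlapped. KB2P 21, last by H2-Eb1, had 2890 CPM, and KB2P 10 of the middle tumours had 2586 CPM. Its slope was -0.66 (SE 0.12, adjusted p = 0.00448), called in all 23 fits without a tumour. It was -0.58 within run 2459 (adjusted p = 0.363) and -0.76 within run 2749 (adjusted p = 0.321) and passed in neither. The mismatch repair gene Msh6 (slope -0.36, SE 0.09, adjusted p = 0.0326), also named after its values were seen, fell too. A list of Wnt genes had positive slopes for 10 of 13 tested members, with a median of 0.24. None passed in edgeR, 4 were higher at an unadjusted p under 0.05 and DESeq2 called 2 higher.

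Mitochondrially encoded transcripts, whose share moves with RNA quality and with the make-up of the tissue, differed with the sets. Summed over the 9 genes of the list they were 6398 to 13060 CPM (median 10540) in the high and 14650 to 28220 CPM (median 20080) in the low set, without overlap. Run medians were 10420 CPM in run 2459 and 19630 CPM in run 2749. The tumours that cross the run pattern had 10810 CPM (KB2P 12, high, run 2749) and 23010 CPM (KB2P 8, low, run 2459). With run as a covariate none of 6 tested genes passed between the sets in edgeR or DESeq2, with 5 lower at an unadjusted p under 0.05, and without the run term 4 were called lower. Red cell transcripts summed to 7.19 to 66.1 CPM (median 19.2) in the high and 6.60 to 214 CPM (median 71.8) in the low set. None of 5 tested passed between the sets in edgeR, where all 5 were lower at an unadjusted p under 0.05, and DESeq2 called 4 lower. Whether these 2 measures have a part in the myeloid and class II differences was not tested.

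**Figure D4:**
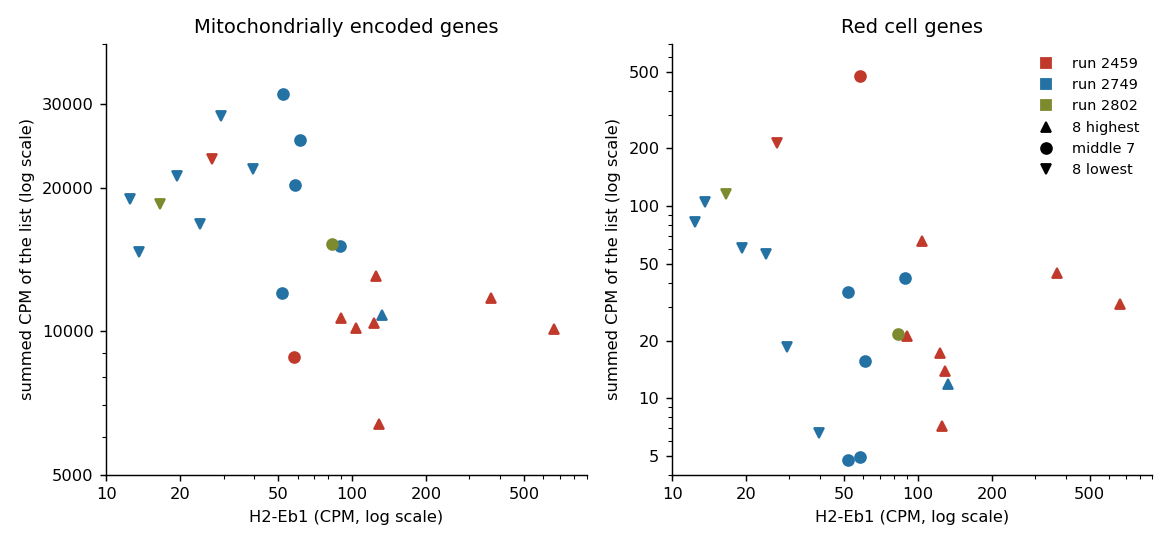
Summed CPM of mitochondrially encoded genes and of red cell genes against H2-Eb1 CPM (log axes) in the 23 KB2P tumours, with colour for the run and shape for the set. The mitochondrial sums of the 8 highest tumours all lie below those of the 8 lowest, and the red cell sums overlap.

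The 21 KB1P-genotype tumours had no part in the ranking and were used to ask which genes go with H2-Eb1 in other tumours. There H2-Eb1 was 1.10 to 20.9 CPM (median 3.01), from 10 to 323 reads, and 296 genes other than H2 genes rose with it (1.71% of 17357 tested) while 1 fell (0.00576%), with run as a covariate. The ratio of H2-Eb1 to H2-Ab1 counts did not overlap between the models (0.0217 to 0.0521 in KB1P-genotype and 0.283 to 0.604 in KB2P tumours). Whether strain background at the H2 locus bears on the H2-Eb1 counts was not tested, so H2-Eb1 levels are not compared between the models. Of the 212 genes that rose in KB2P tumours 122 also rose in KB1P-genotype tumours, which is 57.5% of the KB2P and 41.2% of the KB1P list. Of 207 that were tested there, 204 had a positive slope, beside a median slope of -0.03 over all genes tested. These slopes come from the same tumours and are not independent of each other. Cd74 (slope 1.22, SE 0.08, adjusted p = 6.86e-08), Ciita (1.19, SE 0.09, adjusted p = 2.10e-07) and Gbp4 (1.73, SE 0.17, adjusted p = 8.21e-06) were among the 122. Itgax (0.73, SE 0.14, adjusted p = 0.00712), Aif1 (0.73, SE 0.11, adjusted p = 0.00174) and Ccl5 (2.03, SE 0.29, adjusted p = 9.51e-04) were others. Dnase1l3 rose as well (1.46, SE 0.35, adjusted p = 0.0348), in a fit where 11 of 21 left-out repeats kept the call.

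Other genes named above did not pass in the KB1P-genotype tumours. Il1b had a slope of 0.82 (SE 0.28, adjusted p = 0.238), Fzd7 of -0.59 (SE 0.20, adjusted p = 0.211) and Rbpj-ps3 of 0.10 (SE 0.15, adjusted p = 0.96). Of the 17 falling KB2P genes 14 were tested there, 12 of them had a negative slope and none passed. The median slope over all genes tested there, -0.03, was itself negative. By list, 10 of 23 macrophage, 10 of 20 interferon gamma, 7 of 31 chemokine, 5 of 17 dendritic, 4 of 14 class II and 4 of 15 checkpoint genes rose. Cd274 was among the last (slope 0.82, SE 0.17, adjusted p = 0.0117). Without KB1P 12, which had the highest H2-Eb1, 53 genes were called in all.

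The difference of the 2 slopes was tested in a fit of all 44 tumours. No gene of 18357 passed in edgeR (0%), 527 had an unadjusted p under 0.05 (2.87%), and DESeq2 called 1. The smallest adjusted p was 0.0908. So no gene, Il1b and Fzd7 included, is called different between the models, although a p above the threshold does not show that the slopes are alike. The added 1 CPM takes more from the low H2-Eb1 values of KB1P tumours, so the sizes of the slopes are not on the same footing.

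**Figure D5:**
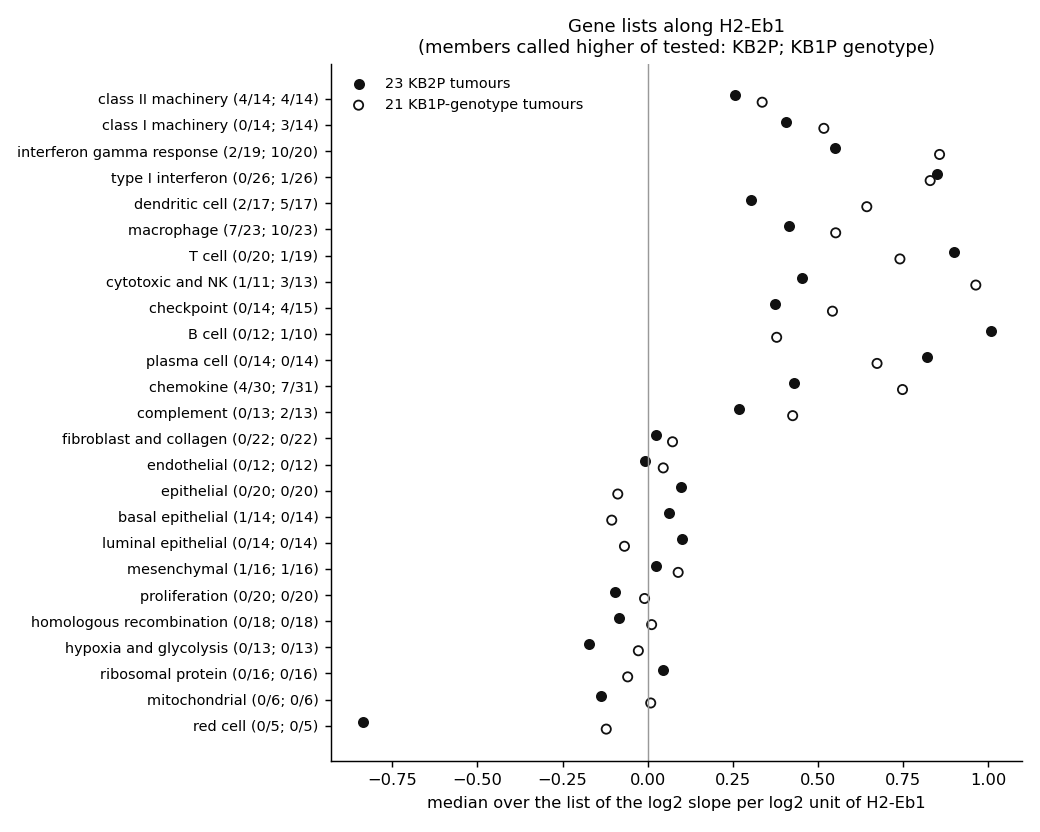
Median slope over each gene list per log2 unit of H2-Eb1 in 23 KB2P tumours (filled) and 21 KB1P-genotype tumours (open), with the number of members called higher of those tested beside each name. The immune lists plotted lie to the right of 0 in both models (the mast cell list, not plotted, had a median of -0.49 in KB1P-genotype tumours), fibroblast, epithelial and proliferation lists lie near 0, and the red cell list has a median of -0.84 in KB2P tumours.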

How the data were processed

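RNA from each tumour was sequenced as 1 library. The authors deposited read counts per gene for each library and a table of log2 expression values. The submitters' processing notes name the mm10 build, STAR 2.7.3a, DESeq, cutadapt 2.10 and featureCounts 2.0.0. No source used here gives the strand setting. There were 39438 symbols with counts and 37148 with log2 values. Gene symbols that a spreadsheet had turned into dates (24, 0.1582% of KB2P counts) were kept as separate rows. KB2P libraries held 7325180 to 21818683 counts.

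Levels are CPM from column totals. Tests used edgeR 4.0.16 in R 4.3.3 (quasi-likelihood, TMM, genes kept by a minimum count of 10, H2 genes left out of the calls) with run as covariate and Benjamini-Hochberg adjustment at 0.05. DESeq2 1.42.0, limma 3.58.1 on the deposited log2 values, other filters and scalings, fits without run, and fits without each tumour were alternatives. Each SE given is the absolute log2 change divided by the square root of its quasi-likelihood F statistic, not a separate estimate from the model. Scripts were tested on simulated data. Gene positions are GRCm38.

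The tumours, gene lists and tests were chosen with earlier results of these data known. The rule for named genes took H2 genes, Brca1, Brca2 and Trp53, called genes of the set comparison (up to 12 per direction, absolute log2 change of at least 1), and from each list up to 4 called members with the smallest adjusted p and up to 2 of the highest level that did not pass. Genes outside it, among them Rbpj-ps3 and those given tumour by tumour (Cd3e, Cd79a, Cr2, Ifit1, Csf1r), were chosen after their values were seen. List members whose symbols were not matched are not analysed here, and some items are not reported here.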

Additional observations from a re-analysis of the deposited data

Results flagged for a closer look

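In groups of 8 tumours, a value was marked where the gap between the highest or lowest tumour and its nearest neighbour, divided by the whole range, exceeded Dixon's 95% critical value. Of 38 checks 4 passed it, and chance marks about 1 in 20 groups. The checked items included H2-Eb1, which cut the sets, and Cd74, Dnase1l3, Rbpj-ps3 and Tal1, which were called between them. The 4 marks are therefore not to be read against that rate. Tal1 in KB2P 8 was 157 CPM, against 0.846 to 2.50 CPM in the other low tumours (ratio 0.856). The summed epithelial genes of KB2P 30 were 117 CPM, against 1697 to 5131 CPM in the other low tumours (ratio 0.707). In KB2P 5 the mitochondrial sum was 6398 CPM, below 10120 to 13060 CPM in the other high tumours (ratio 0.642). The same tumour had the highest sum of proliferation genes, 5489 CPM against 3526 to 4289 CPM (ratio 0.557).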

How the results depend on the processing

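The comparison of the 2 sets called 4 genes, and its count was 159 with DESeq2, 20 with all genes of at least 1 count, 1 without TMM, 2 with limma, 466 without run, 9 with only the 16 tumours, 229 as a slope, and 0 (without KB2P 8) to 19 when 1 tumour was left out. The KB2P slope, whose settings were chosen after seeing the data, called 229 genes, 564 with DESeq2, 147 with limma, 738 without run, 25 within run 2459, 1 within run 2749, 10 without KB2P 16 and KB2P 13, and 56 to 311 without 1 tumour. The KB1P slope called 297 genes, 559 with DESeq2, 462 without run, and 53 (without KB1P 12) to 326 without 1 tumour. The difference of slopes called 0 genes, 1 with DESeq2 and 3 without run. No named gene reversed a called direction under these settings. No paired analysis was possible because the numbers in the titles name tumours, and the sets share none. The sets were not compared within a run, since run 2459 held 1 low and run 2749 held 1 high tumour. Run and H2-Eb1 level are largely confounded, and the cause of the moved counts was not tested.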

Other observations

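The ratio of H2-Eb1 to H2-Ab1 counts was 0.283 to 0.604 (median 0.484) in the 23 KB2P tumours and 0.0217 to 0.0521 (median 0.0316) in the 21 KB1P-genotype tumours, with no overlap. The levels of H2-Ab1 were closer, with medians of 123 CPM in KB2P and 86.9 CPM in KB1P-genotype tumours, and H2-Aa had medians of 183 and 122 CPM. Within KB2P the ratio had a median of 0.475 in the high, 0.522 in the middle and 0.45 in the low set. These values were seen after the data were analysed and no test was made of them.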
